A study of Homo sapiens with 3 samples.

Results

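The proteasome genes described here are the rows of a count table whose symbol is PSMA, PSMB, PSMC, PSMD, PSME, PSMF or PSMG followed by a number and nothing more. The rule found 50 of 57736 gene rows, under 48 symbols. RNA was sequenced from TOV21G, a human line of ovarian clear cell carcinoma that carries a mutated ARID1A gene in every group. The tested cells had been transduced with a lentivirus that encodes a short hairpin RNA against the histone deacetylase gene HDAC2, with 1 library for each of 2 hairpins, named shRNA 1 and shRNA 2. The other group was 1 library of cells labelled WT, which have no HDAC2 knockdown. Whether a control virus was used in WT is not stated, and effects of knockdown and of transduction cannot be told apart. The WT group had no replicate, so the spread came from the hairpin libraries only and was assumed to be the same in WT. The fit also drew on the spread of other genes (1 residual and 18.9 prior degrees of freedom). A p-value here therefore does not measure the hairpin spread of its own gene alone.

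The proteasome is the protease complex that degrades proteins tagged with ubiquitin. Its core particle is a barrel of outer rings of alpha subunits (PSMA) and inner rings of beta subunits (PSMB), some of which carry the proteolytic sites. The regulatory particle has a base, in which ATPases (PSMC) unfold the substrate, and a lid, which removes the ubiquitin chain. Most of its other subunits have PSMD names. Chaperones (PSMG and some PSMD proteins) assist assembly, and activators (PSME) open the barrel. When proteasome activity falls, the transcription factor NRF1, encoded by NFE2L1, raises transcription of many of these genes together.

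The hairpins carry the stems below, written from the submitters' labels in capitals over the full stem. The labels do not say which of them is shRNA 1.
hairpin listed first: CAGTCTCACCAATTTCAGAAA
hairpin listed second: GCAAATACTATGCTGTCAATT

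NRF1 and related factors are known to bind a DNA element of promoters whose core is written here as TGACNNNGC. This motif was searched on both strands, in the bases from 250 before to 50 after each gene's start in RefSeq (GRCh38.p14). Promoter sequence was at hand for 42 of the 48 member symbols, and 15 of them (35.7%) held the motif, against 16.1% of all 27305 symbols with a promoter. The 4 stretches below, on the strand that holds the motif, are shown because their genes include the member with the highest change described below (PSMD12), members with lower changes (PSMD3 and PSMB3) and 1 near 0 (PSMA4). Capitals mark the motif.
PSMD12, chr17:67366723-67366752, minus strand: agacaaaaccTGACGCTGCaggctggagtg
PSMD3, chr17:39980760-39980789, plus strand: tcccctttgtTGACTCGGCcatcggcctgc
PSMB3, chr17:38752627-38752656, plus strand: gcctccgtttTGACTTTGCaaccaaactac
PSMA4, chr15:78540650-78540679, plus strand: gtgggcacgaTGACTCTGCaccgcctcctc
The centre of the motif lay 161 bases (PSMD12), 33 bases (PSMD3), 100 bases (PSMB3) and 122 bases (PSMA4) before the gene's start. PSMD3 had a second match, on the opposite strand and centred 37 bases after the start, and for PSMA4 the match lay in 1 of 3 promoter windows. A match describes letters and not a bound site. Members with the motif had a median log2 change of −0.04 (15 tested, from −0.81 to 0.53), and members without it −0.11 (25 tested, from −0.48 to 0.30), so both sets held changes in either direction. Members without promoter sequence at hand are in neither set. These were PSMD4 (−0.67), PSMG3 (−0.44), PSMA7 (−0.43), PSMB6 (−0.30), PSMB7 (0.01) and PSMB1 (0.15).

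The libraries held 11398791 and 11225492 counts (shRNA 1 and shRNA 2) and 10138479 counts (WT), and 14524 genes had enough counts to be tested. The knockdown target behaved as labelled, as HDAC2 had 33.4 and 51.6 CPM (counts relative to library size, scaled between libraries by the TMM method) with shRNA 1 and shRNA 2, against 105 CPM in WT. Among markers of the line, PAX8 had 250 and 174 CPM in knockdown cells against 263 CPM in WT, whereas KRT7 and MUC1 were below 3 CPM in every library. Of 7 markers of other cell types, CD3E was at 0 in every library and PTPRC and HLA-DRA had at most 2 counts. Their summed level was 28.6 and 40.1 CPM in knockdown cells and 21.1 CPM in WT, and the collagen gene COL1A2 rose to 19.2 and 29.6 CPM against 8.73 CPM in WT (adjusted p = 0.00235, BH-adjusted quasi-likelihood F test of edgeR). Without COL1A2 the sum was 9.42 and 10.4 CPM in knockdown cells and 12.3 CPM in WT, which is the opposite direction, and COL1A1 had 4.71 and 7.87 CPM in knockdown cells against 6.72 CPM in WT. The part of these markers in the results below was not tested.

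Most proteasome genes were well expressed and differed little between knockdown and WT cells. Together the 50 rows held 6416 and 6496 CPM in the knockdown libraries against 6943 CPM in WT. By the quasi-likelihood F test of edgeR, with p-values adjusted over all genes by the method of Benjamini and Hochberg (BH), 1 of the 48 tested rows fell, PSMD4, 0 rose and 47 did not pass, whereas 7.72% of all genes tested passed (3.76% lower and 3.96% higher). With the trend in transcript GC content removed, the calls over all genes were 196 higher and 361 lower, against 575 higher and 546 lower without this step. At an unadjusted p below 0.05 there were 8 members, or 16.7% against 23.5% of all genes, with PSMD12 higher and PSMA7, PSMB3, PSMC3, PSMD3, PSMD4, PSMD9 and PSMG3 lower. DESeq2's Wald test called 0 members, against 2.11% of all genes, and 5 members (10.4%) had an unadjusted p below 0.05 in it, against 10.2% of all genes. The median log2 change was −0.11 over the members and 0.01 over all genes. In bulk RNA, fewer cells of a type and less RNA per cell cannot be told apart.

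The 95% interval of the log2 change lay within a 2-fold change either way for 43 of the 48 rows (89.6%; 64.5% of all genes tested), and within a 1.5-fold change for 26 of them (54.2%; 24.6% of all genes). These shares depend on the width of the interval as well as on the change. The median SE was 0.17 over the members and 0.21 over all genes. The count filter was passed by 48 of the 50 rows. PSMA8, an alpha subunit of the testis, and PSMB11, a beta subunit of the thymus, had 0 counts in every library, where the upper limit for a count of 0, which is 3 counts, equals 0.262 and 0.265 CPM with shRNA 1 and shRNA 2 and 0.301 CPM in WT. This limit covers counting error only.

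A second Ensembl ID carried the symbol PSMA1 (ENSG00000256206) and another the symbol PSMB10 (ENSG00000261884). Both overlap the gene and a neighbour in GENCODE 29 (COPB1 and CTRL) and have 87.4% and 46.1% of their 75-base sequences in common with other genes, so their counts rest on how reads were divided. The PSMA1 ID had 25 and 0 counts with shRNA 1 and shRNA 2 and 19 in WT, and the PSMB10 ID had 3 and 14 counts with shRNA 1 and shRNA 2 and 16 in WT. Their log2 changes were −0.79 ± 0.91 and −1.09 ± 0.79 (SE), with 95% intervals from −2.70 to 1.11 and from −2.74 to 0.56, which both hold 0. In both cases the hairpin libraries differed from each other by more counts than their mean differed from WT. Without these 2 rows the members numbered 48, of which 46 were tested, with a median of −0.11.

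**Figure D1:**
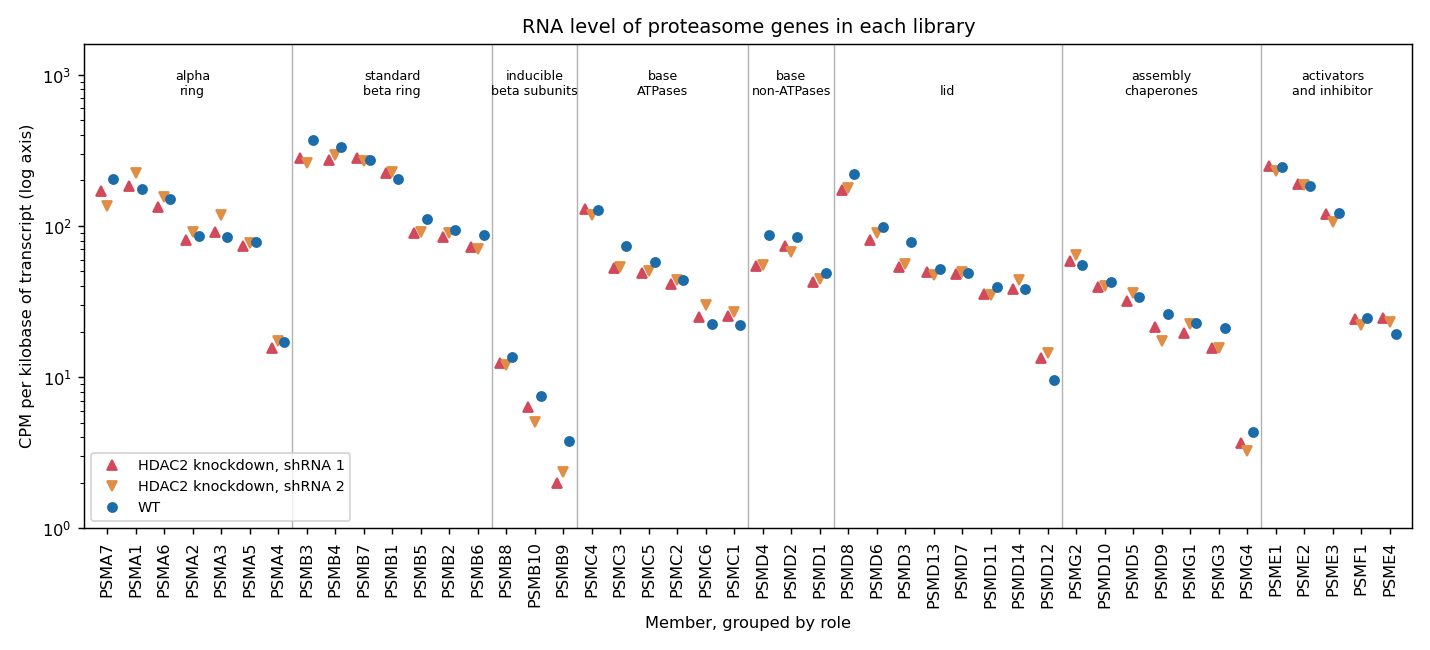
Level of each of the 46 tested members (second IDs left out) in CPM per kilobase of the longest coding transcript, on a log axis, by role, with 1 symbol for each library. The 3 libraries lie close together for most genes, and the inducible beta subunits lie below the standard beta ring in all of them.

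Per kilobase of transcript, the 31 tested subunits of the standard particle differed far more from each other than between the groups. The lowest was PSMD12 in all 3 libraries, at 13.3 and 14.3 CPM per kilobase with shRNA 1 and shRNA 2 and 9.54 in WT. The highest level was 284 with shRNA 1 (PSMB7), 295 with shRNA 2 (PSMB4) and 370 in WT (PSMB3). The ratio of highest to lowest was 21.3 and 20.6 in the knockdown libraries and 38.8 in WT. The median over the 31 subunits was 73.4 and 70.4 CPM per kilobase in the knockdown libraries and 85.0 in WT. The longest coding transcript need not be the one these cells make. With the length of GENCODE's principal transcript, an alternative chosen after seeing the data, the lowest and highest values and the genes that held them did not change.

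The alpha ring forms the gate through which substrates enter the core. None of its 8 tested rows passed the test, and the 7 without the second PSMA1 ID had log2 changes from −0.43 to 0.30 with a median of −0.04. PSMA7 had 170 and 135 CPM with shRNA 1 and shRNA 2 against 205 CPM in WT. Both hairpin libraries were below WT, and shRNA 2 was the lower of them. The log2 change was −0.43 ± 0.18 (SE; adjusted p = 0.147, BH-adjusted quasi-likelihood F test of edgeR). PSMA3 had 88.7 and 114 CPM with shRNA 1 and shRNA 2 against 82.5 CPM in WT. This placed shRNA 1 near WT and shRNA 2 above it, and the log2 change was 0.30 ± 0.19 (SE; adjusted p = 0.357 by the same edgeR test). PSMA1 (ENSG00000129084) was alike in pattern, with 280 and 340 CPM against 268 CPM in WT, and shares 17.3% of its 75-base sequences with its second ID. PSMA2, PSMA4, PSMA5 and PSMA6 had log2 changes between −0.06 and 0.00.

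The standard beta ring holds the proteolytic sites, in PSMB5 (cleavage after hydrophobic residues), PSMB6 (after acidic residues) and PSMB7 (after basic residues). None of the 7 genes passed, and their median log2 change was −0.23. PSMB5 had 117 and 117 CPM in the knockdown libraries against 143 CPM in WT. PSMB6 had 62.8 and 61.3 CPM in the knockdown libraries against 76.4 CPM in WT. For both genes the hairpin libraries were nearly equal and below WT, with log2 changes of −0.29 ± 0.17 and −0.30 ± 0.17 (SE; adjusted p = 0.319 and 0.292, BH-adjusted quasi-likelihood F test of edgeR). PSMB7 had 278 and 263 CPM in the knockdown libraries, on either side of the 269 CPM in WT, and a log2 change of 0.01 ± 0.17 (SE). Of the subunits without a proteolytic site, PSMB3 had the lowest change (−0.45 ± 0.17, SE; adjusted p = 0.104 by the same edgeR test), with 218 and 201 CPM in the knockdown libraries against 286 CPM in WT. PSMB1, at 0.15 ± 0.17 (SE), had the highest.

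The inducible subunits PSMB8, PSMB9 and PSMB10 replace PSMB5, PSMB6 and PSMB7 in the immunoproteasome, a form that interferon induces and that favours peptides for presentation by MHC class I. They were expressed at low levels. PSMB8 had 16.8 and 16.2 CPM in the knockdown libraries against 18.5 CPM in WT. PSMB9 had 18 and 21 counts in the knockdown libraries against 30 counts in WT, and PSMB10 (ENSG00000205220) had 88 and 69 counts against 91 counts in WT. All 3 were below WT with both hairpins and none passed the test, with log2 changes of −0.16 ± 0.21, −0.81 ± 0.51 and −0.41 ± 0.29 (SE). At these counts the 95% interval of PSMB9 ran from −1.86 to 0.25, which holds both no change and a fall of more than 2-fold. PSMB10 shares 23.5% of its 75-base sequences with its second ID. Per kilobase, the inducible genes made up 4.43% and 4.31% of the summed level of the 6 catalytic genes in the knockdown libraries and 5.02% in WT.

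The ATPases of the base form the ring that unfolds substrates and threads them into the core. None of the 6 passed, and their median log2 change was −0.04. PSMC3 had 82.7 and 85.1 CPM in the knockdown libraries against 117 CPM in WT. Both hairpins were below WT by more than they differed from each other, at a log2 change of −0.48 ± 0.17 (SE; adjusted p = 0.0839, BH-adjusted quasi-likelihood F test of edgeR). With the GC trend removed the log2 change of PSMC3 was −0.29. PSMC6 had 54.7 and 65.8 CPM with shRNA 1 and shRNA 2 against 49.5 CPM in WT, a log2 change of 0.28 ± 0.18 (SE). PSMC1 stood at 0.25 ± 0.17 (SE) with 1303 and 1354 counts in the knockdown libraries against 976 in WT. It shares 18.5% of its 75-base sequences, mostly with its pseudogene PSMC1P1, which had 0 and 175 counts with shRNA 1 and shRNA 2 against 198 in WT. With pseudogene counts added, PSMC1 had 1311 and 1542 counts in the knockdown libraries against 1182 in WT, and its log2 change was 0.08 ± 0.18 (SE).

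PSMD4 was the member that passed the test. It encodes a ubiquitin receptor of the base, which captures substrates by their ubiquitin chains. PSMD4 (ENSG00000159352, chromosome 1) had 835 and 846 counts, or 72.8 and 74.8 CPM, in the knockdown libraries against 1168 counts, or 117 CPM, in WT. The hairpin libraries lay within a few percent of each other, and both were below WT. The knockdown mean was 73.8 ± 1.39 CPM (SD, n = 2), or 0.630 of WT on the fitted scale. Its log2 change was −0.67 ± 0.17 (SE; 95% interval −1.01 to −0.32; adjusted p = 0.0178, BH-adjusted quasi-likelihood F test of edgeR). The call was lost with the GC trend removed (log2 change −0.55, adjusted p = 0.0559 by the same edgeR test) and with DESeq2's Wald test (adjusted p = 0.0795). It was also lost without a count filter (adjusted p = 0.468 in edgeR), but there 0 of all genes passed. HDAC2, the knockdown target, did not pass in that fit either (adjusted p = 0.468 in edgeR). Over the alternatives with a test the adjusted p of PSMD4 ran from 0.00717 to 0.468 (edgeR and DESeq2). PSMD4 shares 4.36% of its 75-base sequences with PIPSL, whose counts were not added to it in any alternative. The large scaffold subunits of the base, PSMD1 and PSMD2, had log2 changes of −0.17 ± 0.17 and −0.26 ± 0.17 (SE). PSMD2 had 253 and 232 CPM in the knockdown libraries against 290 CPM in WT.

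**Figure D2:**
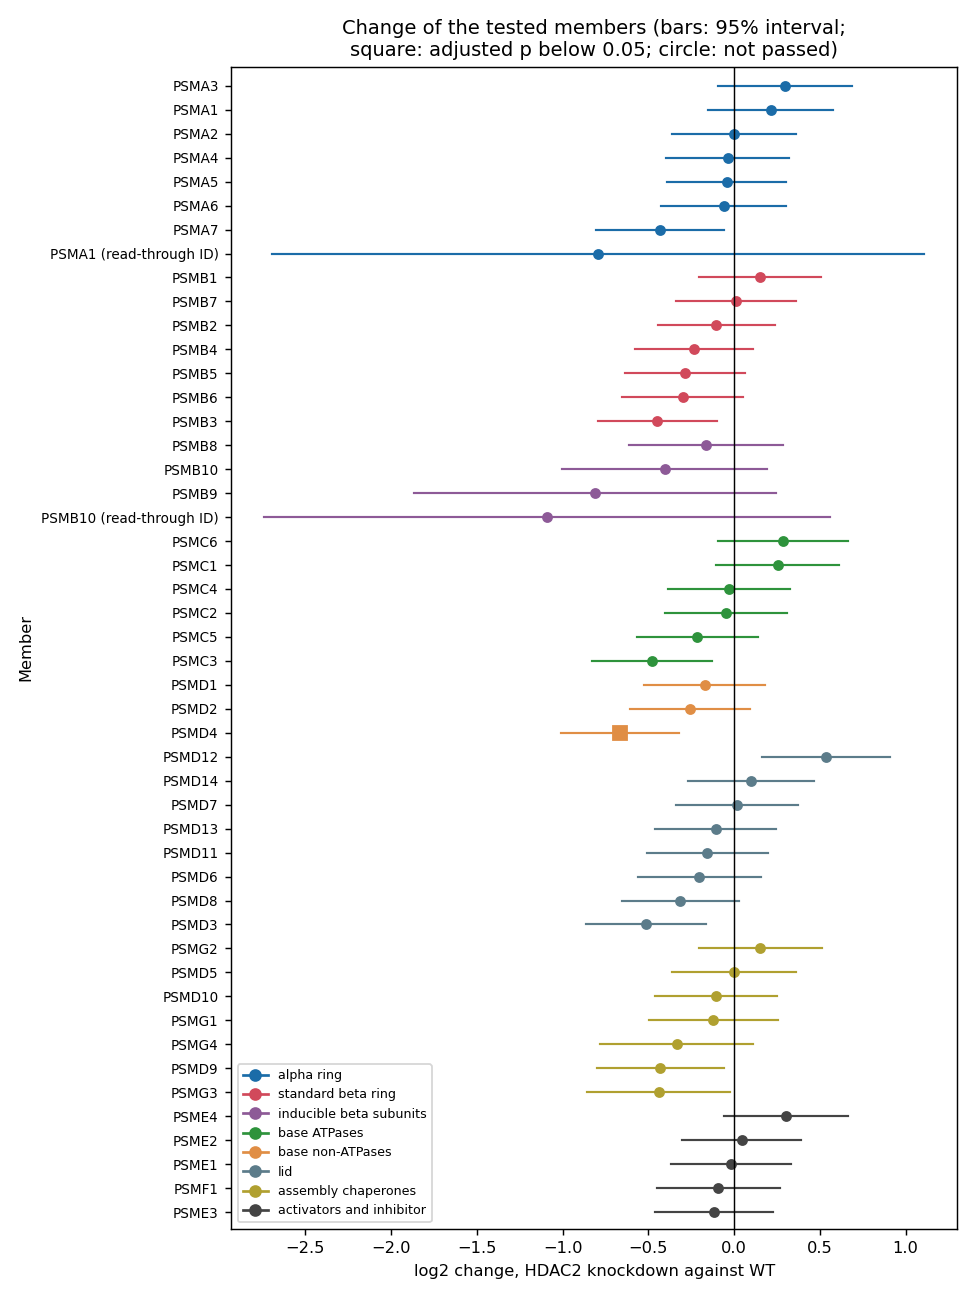
Log2 change of the 48 tested rows, HDAC2 knockdown against WT, by role, with points for the fitted value and bars for the 95% interval from edgeR's fit. PSMD4 (square, −0.67) is the 1 row that passed the test, and most intervals cross 0.

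The lid held the highest change of all members, PSMD12, and 1 of the lower ones, PSMD3. It includes PSMD14, the enzyme that cuts the ubiquitin chain off the substrate, which had 74.4 and 86.3 CPM with shRNA 1 and shRNA 2 against 75.1 CPM in WT (log2 change 0.10 ± 0.18, SE). None of the 8 lid genes passed. PSMD12 had 58.6 and 63.1 CPM in the knockdown libraries against 42.0 CPM in WT. Its 2 knockdown values were both above WT, and its log2 change of 0.53 ± 0.18 (SE; 95% interval 0.16 to 0.91; adjusted p = 0.0736, BH-adjusted quasi-likelihood F test of edgeR) was the highest of all members. It passed with scaling by library size alone (adjusted p = 0.0412 by the same edgeR test, with a range over the alternatives from 0.0412 to 0.538), and its log2 change was 0.21 with the GC trend removed. PSMD3 had 115 and 122 CPM in the knockdown libraries against 169 CPM in WT, which is the opposite direction. Its log2 change was −0.51 ± 0.17 (SE; adjusted p = 0.0669 by the same edgeR test), and −0.28 with the GC trend removed. PSMD6, PSMD7, PSMD8, PSMD11 and PSMD13 lay between −0.31 and 0.02.

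Assembly of the core is guided by the chaperones PSMG1 to PSMG4, and that of the base by PSMD5, PSMD9 and PSMD10. None of these 7 genes passed, and their median log2 change was −0.12. PSMD9 had 59.5 and 48.5 CPM with shRNA 1 and shRNA 2 against 72.8 CPM in WT, a log2 change of −0.43 ± 0.18 (SE; adjusted p = 0.144, BH-adjusted quasi-likelihood F test of edgeR). It shares 16.1% of its 75-base sequences with other genes. PSMG3 had 21.6 and 21.6 CPM in the knockdown libraries against 29.3 CPM in WT, and its partner PSMG4 had 16.8 and 15.0 CPM against 20.1 CPM in WT. The members of this pair were below WT with both hairpins, at log2 changes of −0.44 ± 0.20 and −0.34 ± 0.21 (SE). In the other pair, PSMG1 stood at −0.12 ± 0.18 and PSMG2 at 0.15 ± 0.17 (SE). PSMD5 and PSMD10 had log2 changes of 0.00 and −0.11.

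The activators bind the ends of the barrel in place of the regulatory particle. PSME1 and PSME2, which form an interferon-inducible activator, had log2 changes of −0.02 ± 0.17 and 0.04 ± 0.17 (SE). PSME2 had 267 and 263 CPM in the knockdown libraries against 257 CPM in WT. PSME3, a nuclear activator, was the most abundant member by CPM with shRNA 1 and in WT, with 405 and 356 CPM in the knockdown libraries against 412 CPM in WT. PSME4, the activator known for degradation of acetylated histones, had 174 and 164 CPM in the knockdown libraries against 137 CPM in WT, so both were above it. Its log2 change was 0.30 ± 0.17 (SE; 95% interval −0.06 to 0.66), and 0.09 with the GC trend removed. PSMF1, an inhibitor of the core in vitro, stood at −0.09 ± 0.17 (SE).

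**Figure D3:**
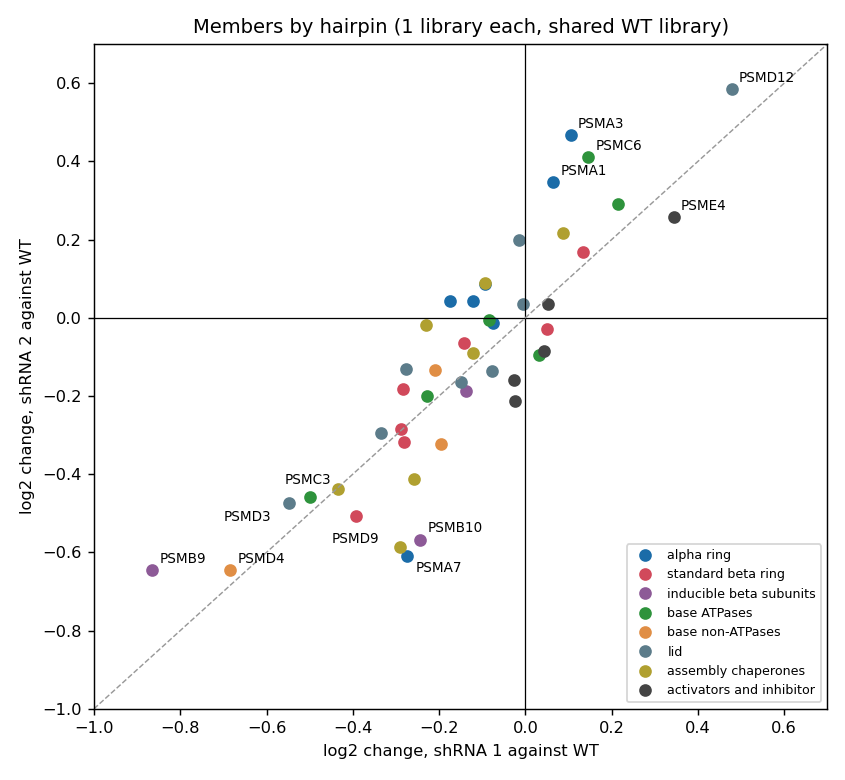
Log2 change with shRNA 2 (vertical) against that with shRNA 1 (horizontal) for 46 members, both against the same WT library, with the dashed line marking equal change. PSMD4 and PSMD12 lie close to the line, while PSMA3, PSMA1 and PSMC6 lie above it and PSMA7, PSMD9 and PSMB10 below it.

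The hairpins shared the WT library and were compared without a test. The median change was −0.13 with each hairpin. Of the 48 tested rows, 29 were below WT with both hairpins (60.4%, against 39.3% of all genes tested), 9 were above it with both (18.8%, against 39.9%), and 10 had opposite signs. The median size of the difference between hairpins was 0.11 on the log2 scale over the members and 0.19 over all genes. Among members with a mean count of at least 50, PSMA3 (0.36), PSMA1 (0.28) and PSMC6 (0.27) were highest in shRNA 2 minus shRNA 1, and PSMA7 (−0.33), PSMB10 (−0.32) and PSMD9 (−0.30) were lowest.

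The members' changes followed the GC content of their transcripts, as did those of all genes. Spearman's rho between GC content and log2 change was −0.62 over 46 members and −0.48 over 14216 genes, which are values across genes of the same 3 libraries and not across replicates. The 15 members with the lowest GC content (36.8% to 45.5%) had a median log2 change of −0.04, and the 15 with the highest (53.1% to 60.1%) had −0.31. With the trend over all genes removed, these medians were −0.23 and −0.15, and rho over the members was 0.05. In that fit 0 of the 48 rows passed, against 3.92% of all genes, and 4 members (8.33%) had an unadjusted p below 0.05, against 17% of all genes. The median over all members was then −0.16, and PSMB3, PSMA7, PSMD9 and PSMG3 stood at −0.32, −0.32, −0.36 and −0.20. PSMD12 and PSMC6, at the high end of the changes, have 37.9% and 36.8% GC, and PSMD3 and PSMG3, at the low end, 58.6% and 58.8%. PSMB9 and PSMD4, which are lower still, have 53.9% and 53.1%. Other members with low or high GC content changed little. PSMA5 and PSMC2 (37.2% and 38.9%) had log2 changes of −0.04 and −0.05, and PSME2 and PSMC4 (57.55% and 55.2%) 0.04 and −0.03.

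**Figure D4:**
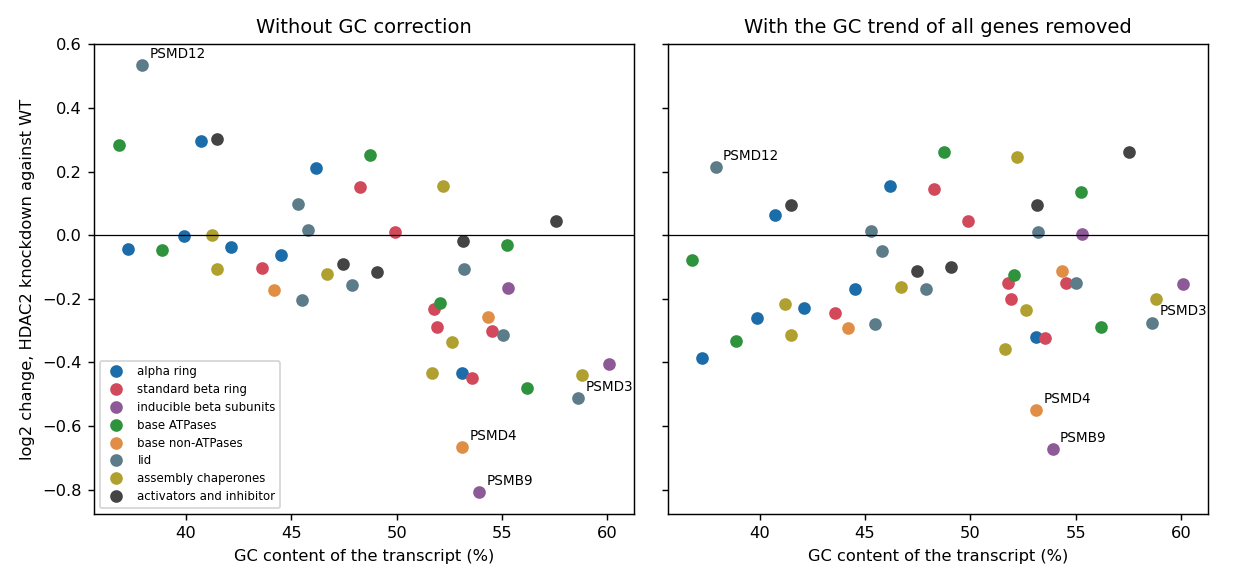
Log2 change of 46 members, HDAC2 knockdown against WT, by the GC content of the transcript in percent, without correction (left) and with the trend over all genes removed (right). The slope at left is absent at right, and PSMD4 and PSMB9 are lowest in both.

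Other genes of the pathway, taken from lists, were also mostly without a call. Of 16 proteasome proteins and partners without a PSM name, 3 rose, 0 fell and 13 were without a call, where 3.96% of all genes rose, and the median was 0.12. At an unadjusted p below 0.05 there were 5 of the 16 (4 higher and 1 lower), or 31.2%, against 23.5% of all genes. POMP, the chaperone that guides formation of the beta ring, had 80.9 and 106 CPM with shRNA 1 and shRNA 2 against 58.8 CPM in WT, and rose by 0.67 ± 0.19 (SE) on the log2 scale. UBLCP1, a phosphatase of the nuclear proteasome, had 592 and 609 counts in the knockdown libraries against 309 counts in WT, and rose by 0.77 ± 0.19 (SE). ZFAND2A, a stress-induced protein that binds the proteasome, had 9.34 and 11.5 CPM in the knockdown libraries against 4.72 CPM in WT, and rose by 1.14 ± 0.30 (SE). The adjusted p was 0.0371, 0.0149 and 0.0239 for POMP, UBLCP1 and ZFAND2A by BH-adjusted quasi-likelihood F test of edgeR. With the GC trend removed, ZFAND2A kept its call (adjusted p = 0.0216 by the same edgeR test), and POMP and UBLCP1 lost theirs at log2 changes of 0.22 and 0.44. In DESeq2's Wald test the adjusted p was 0.152 for POMP and 0.110 for UBLCP1, and DESeq2 gave none for ZFAND2A. Without a count filter none of the 3 passed, but there 0 of all genes did. POMP also lost its call with upper quartile scaling and with a minimum mean count of 50, at adjusted p = 0.0513 and 0.0518 in edgeR.

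The genes that control the proteasome genes through NRF1 had 0 calls among 14 tested (3 at an unadjusted p below 0.05, or 21.4%, against 23.5% of all genes). There were 3 calls with library size alone, where 10.1% of all genes passed. With pseudogenes summed there was 1, where 1161 of 14521 genes passed. With the GC trend removed there was 1, as MAFK, a partner of these factors, rose by 1.22 (adjusted p = 0.0170 in edgeR). Without this step MAFK had 11.9 and 9.55 CPM in the knockdown libraries against 5.62 CPM in WT. The log2 change of MAFK was then 0.93 ± 0.29 (SE; adjusted p = 0.0526 in edgeR). NFE2L1 had 90.4 and 95.1 CPM in the knockdown libraries against 91.2 CPM in WT, which lies between them. Its log2 change was 0.02 ± 0.17 (SE), that of its relative NFE2L2 0.04 ± 0.17 (SE), and that of VCP, the ATPase that extracts NRF1 from the membrane, 0.10 ± 0.16 (SE). There were 0 calls among 6 genes of ubiquitin and its activating enzymes, 11 of VCP and its cofactors and 10 of the COP9 signalosome, a complex related to the lid, whose median was −0.21. At an unadjusted p below 0.05 these 3 lists had 3, 1 and 5 genes, or 50%, 9.09% and 50%, against 23.5% of all genes. With the GC trend removed they had 0, 0 and 1 calls, where 3.92% of all genes passed, the last being COPS9 (0.64, adjusted p = 0.0383 in edgeR). Without this step COPS9 stood at 0.42 ± 0.17 (SE; adjusted p = 0.142 in edgeR). The COP9 list also had 1 call with library size alone, where 10.1% of all genes passed. It had 1 at a mean count of at least 50 (937 of 11206 genes passed). With edgeR's likelihood ratio test it had 1 too, where 1252 of 14524 genes passed.

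Of 10 genes that control the immunoproteasome or serve peptide transport, 1 rose and 9 did not pass, where 3.96% of all genes rose. At an unadjusted p below 0.05 there was 1 of the 10, or 10%, against 23.5% of all genes. The gene that rose was B2M, the light chain of MHC class I. It had 331 and 317 CPM in the knockdown libraries against 209 CPM in WT (log2 change 0.63 ± 0.17, SE; adjusted p = 0.0283, BH-adjusted quasi-likelihood F test of edgeR), and 0.36 without a call with the GC trend removed. The call was also lost without a count filter, where 0 of all genes passed. The interferon factor IRF1 did not pass, at 0.02 ± 0.23 (SE). The inducible beta subunits described above did not pass either, and their fitted changes were below 0 without the GC correction. With the GC trend removed, the changes were 0.00 for PSMB8, −0.67 for PSMB9 and −0.15 for PSMB10 (ENSG00000205220), also without a call. The difference between the inducible beta subunits and B2M was not tested.

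**Figure D5:**
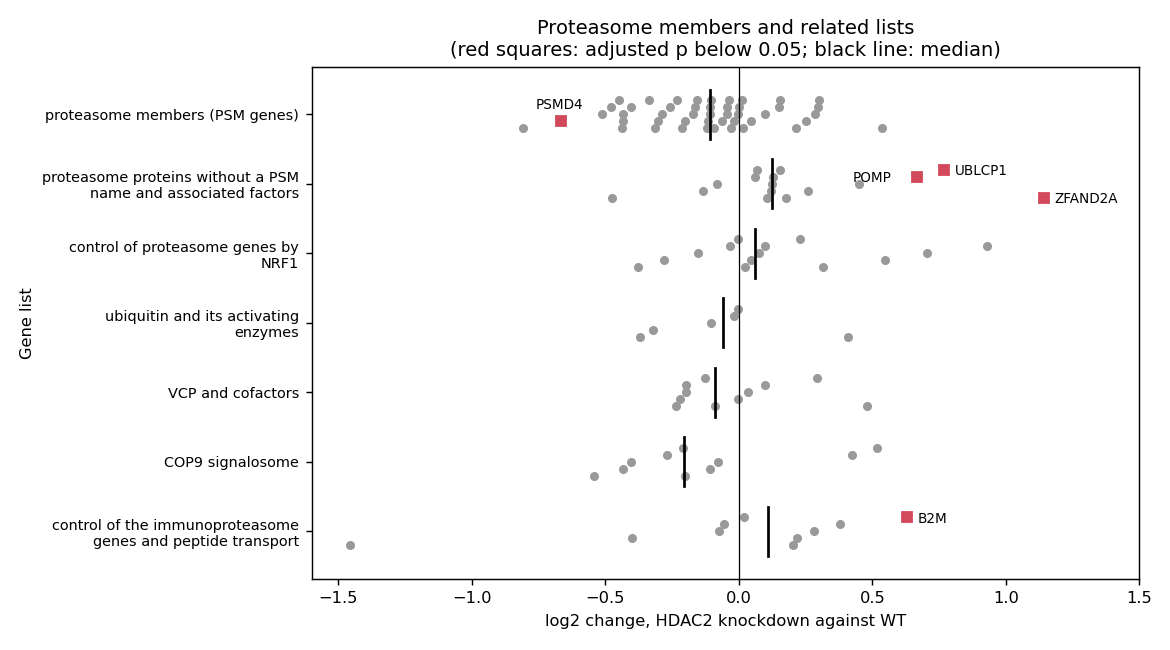
Log2 change, HDAC2 knockdown against WT, of 46 proteasome members and of the tested genes of 6 related lists, with black lines for the medians and red squares for genes past the test. PSMD4 lies below 0, and POMP, UBLCP1, ZFAND2A and B2M above it.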

How the data were processed

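Total RNA was made into libraries with a ScriptSeq kit and sequenced as 75 bp reads, per the labels' protocols. The authors deposited estimated counts for each Ensembl gene, already whole; RSEM 1.2.3, edgeR and hg19 are named in the submitters' processing notes, with no role given. The sources used here do not state whether counting used strand. RSEM divides reads that fit several genes, so genes with near-identical copies are uncertain.

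Counts were scaled by TMM and filtered by filterByExpr at its defaults. Knockdown (n = 2) was compared with WT (n = 1) by edgeR's quasi-likelihood test (edgeR 4.0.16, limma 3.58.1, R 4.3.3), Benjamini-Hochberg adjusted over 14524 genes, threshold 0.05. The fit had 1 residual and 18.9 prior degrees of freedom. Standard errors came from the estimate and its F statistic, and intervals are at 95%. Single-hairpin changes used log2 CPM with a prior count of 2. GENCODE 29 (GRCh38) gave transcript length, GC content (97.9% of tested genes) and shared 75-base sequences; PSMB3, whose ID is not in it, was matched by symbol. The fit was tested on simulated data.

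Alternatives were other scalings, filters and tests (DESeq2 1.42.0), removal of a GC trend per library, pseudogenes summed and each hairpin alone. Named members were those past the test, the 4 highest and 4 lowest changes, the 3 extremes each way between hairpins, the catalytic subunits and those with 0 counts; others illustrate their role group and were chosen after their values were seen. From related lists, up to 2 rising and 2 falling genes past the test were named, with NFE2L1, NFE2L2, VCP and POMP; MAFK, COPS9 and IRF1 were chosen after their values were seen. Some genes, and 1 related list, are not reported here. Members and lists were chosen with earlier results of these data known.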

Additional observations from a re-analysis of the deposited data

How the results depend on the processing

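The count of proteasome members past the test, 1 of 48, was 2 with scaling by library size alone (PSMD4 and PSMD12), and 0 without a filter, with DESeq2's Wald test and with the GC trend removed. It was 1 with the other alternatives, including without the rows of the second PSMA1 and PSMB10 IDs, an alternative chosen after seeing the data. At an unadjusted p below 0.05 there were 6 members without a filter, or 12.5%, against 10.5% of the 23698 genes tested in that fit. Over all genes, 0 passed without a filter (2486 at an unadjusted p below 0.05), 306 passed DESeq2's Wald test and 557 passed with the GC trend removed, 196 of them higher and 361 lower, against 575 higher and 546 lower without it. With library size alone 868 were higher and 595 lower. The members' median log2 change of −0.111 was −0.115 with DESeq2 size factors and with DESeq2's Wald test, −0.0775 with library size alone, −0.120 with upper quartile scaling, −0.123 at a mean count of at least 50, −0.158 with the GC trend removed and −0.107 without those rows. It ranged from −0.132 to −0.131 when either hairpin was left out, which leaves 1 library in each group and gives no test. Of 505 values of 57 named genes under alternatives with a test, 467 kept their direction and side of the threshold, 20 lost a call, 1 gained one, 17 changed sign without a call in either fit, and 0 called values reversed. The causes of the lost calls were not tested. No paired analysis was possible because the labels number the hairpins only and WT has 1 library. The lone WT library and the depth limit what can be seen for genes with few counts, such as PSMB9.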
